A study of Mus musculus with 8 samples.

Results

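The fibrillar collagens described here are 7 genes, Col1a1, Col1a2, Col3a1, Col5a1, Col5a2, Col5a3 and Col11a1, taken by symbol from a table of 23952 genes measured by RNA sequencing in mouse Lewis lung carcinoma tumors and in cells sorted from them. Each was represented by a single RefSeq transcript (in that order NM_007742, NM_007743, NM_009930, NM_015734, NM_007737, NM_016919 and NM_007729). The tumors grew under the skin of both flanks of transgenic Col1a1-GFP mice, in which green fluorescent protein (GFP) is expressed with Col1a1, after injection of Lewis lung carcinoma cells. These cells come from an established mouse lung carcinoma line and had been transfected with the red fluorescent protein dTomato, sorted for it and kept under G418. Fluorescent collagen was injected into the tumors before they were dissociated. There were 4 groups of 2 libraries: Total tumor (unsorted tumor), LLC (dTomato-positive carcinoma cells), Fibroblast (GFP-positive cells) and TAM (macrophages negative for dTomato and GFP and positive for F4/80 and for the injected collagen). Strain, sex, age and the number of animals behind a library are not given in the labels, so each p-value rests on the variation seen among libraries, which may be technical. The Fibroblast gate was set on a Col1a1 reporter and the TAM gate excluded it, so the Col1a1 differences that involve these groups follow in part from the sort, while the labels name no GFP gate for LLC.

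Fibrillar collagens are the rod-like proteins that form the tensile fibers of connective tissue. Type I collagen is built from a pair of Col1a1 chains and a single Col1a2 chain, and type III collagen from Col3a1 chains alone. Type V collagen, made from Col5a1 and Col5a2 and in some tissues also Col5a3, lies inside type I fibrils, where it starts their assembly and limits their width, and Col11a1 has the same role in cartilage. Fibroblasts are the main source of types I, III and V in connective tissue.

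Promoter sequences are shown for 4 of the genes, because their levels in LLC went separate ways: Col3a1, Col5a1 and Col5a3 stood at 22.7 to 35.2% of the Fibroblast level there, and Col1a2 at 1.13 and 3.92%. They are the RefSeq entries of build GRCm38.p6, from 250 bases before to 50 after the annotated start, and 5 of the 7 genes had one (all but Col1a1 and Col5a2). The windows are chr6:4505368-4505667 on the plus strand for Col1a2, chr1:45311288-45311587 (plus) for Col3a1, chr2:27886175-27886474 (plus) for Col5a1 and chr9:20815018-20815317 (minus) for Col5a3. Capitals mark every CCAAT or ATTGG, every GGGCGG or CCGCCC, and every TATAAA or TTTATA, each pair being the forms of a motif on both strands. No base in these windows belonged to 2 motifs.
Col1a2: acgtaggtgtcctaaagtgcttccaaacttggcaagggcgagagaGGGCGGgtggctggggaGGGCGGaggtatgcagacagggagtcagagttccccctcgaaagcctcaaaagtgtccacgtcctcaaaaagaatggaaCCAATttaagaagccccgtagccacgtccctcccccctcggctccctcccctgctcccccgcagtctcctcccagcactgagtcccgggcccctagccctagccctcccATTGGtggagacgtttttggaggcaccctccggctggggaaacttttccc
Col3a1: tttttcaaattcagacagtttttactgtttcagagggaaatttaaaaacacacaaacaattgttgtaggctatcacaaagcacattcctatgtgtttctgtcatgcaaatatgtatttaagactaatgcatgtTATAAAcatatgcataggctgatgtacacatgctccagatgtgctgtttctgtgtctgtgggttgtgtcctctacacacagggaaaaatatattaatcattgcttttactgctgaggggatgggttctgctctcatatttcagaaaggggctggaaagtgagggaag
Col5a1: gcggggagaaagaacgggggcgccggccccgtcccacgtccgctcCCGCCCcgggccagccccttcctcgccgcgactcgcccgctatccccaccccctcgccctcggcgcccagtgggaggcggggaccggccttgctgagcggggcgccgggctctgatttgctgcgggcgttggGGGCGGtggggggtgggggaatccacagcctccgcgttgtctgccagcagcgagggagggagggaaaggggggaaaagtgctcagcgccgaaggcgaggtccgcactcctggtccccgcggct
Col5a3: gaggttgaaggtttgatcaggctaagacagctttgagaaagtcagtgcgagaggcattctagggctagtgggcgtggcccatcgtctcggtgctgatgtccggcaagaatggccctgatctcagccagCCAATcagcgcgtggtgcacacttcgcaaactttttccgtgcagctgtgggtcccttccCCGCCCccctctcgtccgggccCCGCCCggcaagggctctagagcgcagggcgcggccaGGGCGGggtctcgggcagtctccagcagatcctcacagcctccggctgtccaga

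The Col1a2 window held 2 CCAAT-type and 2 GGGCGG-type matches. In the Col3a1 window there was 1 TATAAA match and no CG dinucleotide, a count of 0 that 5.43% of the 32851 promoter windows shared. Col5a1 had 34 CG dinucleotides and 2 GGGCGG-type matches, and 93.05% of windows had as many CG or fewer. Col5a3 had 20 CG, 3 GGGCGG-type matches and 1 CCAAT-type match. Of all windows 37.4% held a CCAAT-type match, 35.7% a GGGCGG-type match and 13.6% a TATAAA-type match, so such matches are common and describe only these letters. The windows of Col3a1 and Col5a1 lay near opposite ends in CG content. Any link between these sequences and the levels of the genes was not tested, and Col1a1 and Col5a2 had no window.

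Values are RPKM (reads per kilobase of transcript, scaled to the reads of the library). Levels of different genes can be set beside each other within a library only roughly, since coverage along transcripts was not examined. The depth was estimated at 4.29 to 10.4 M reads a library, higher in replicate 1 (8.56 to 10.4 M) than in replicate 2 (4.29 to 4.73 M) of each group. Macrophage markers matched the TAM label: 10 of them summed to 19835 and 15289.8 RPKM in TAM, against 85.5 and 504.5 in LLC and 211.7 and 273.7 in Fibroblast. Of the epithelial markers, Krt8 and Krt18 set LLC apart from the other sorted groups, and the others did not. In LLC, Krt8 stood at 57.5 and 43.6 RPKM and Krt18 at 121.7 and 82.8. Fibroblast held 2.14 and 21.2 RPKM of Krt8 and 5.59 and 44.9 of Krt18. In TAM, Krt8 reached 2.92 RPKM at most and Krt18 7.63. The 6 listed summed to 179.3 and 128.7 RPKM in LLC, nearly all of it Krt8 and Krt18, and to 11.2 and 13.1 in TAM. In Fibroblast 2 the sum was 190.8 RPKM, of which Krt19 made up 99.6. In LLC, Krt7 was listed at 0, Krt19 stood at 0.07 and 1.53 RPKM, and Epcam and Cdh1 were at or below 0.454 RPKM. Some libraries stood apart. The median of 10 fibroblast markers was 0.583% of the Fibroblast level in TAM 1 and 2.65% in TAM 2. LLC 2 held more macrophage RNA than LLC 1 (sums above), the epithelial sum was 25.7 RPKM in Fibroblast 1 against that 190.8 in Fibroblast 2, and 4 neutrophil markers to 129.5 in Total tumor 1 and 591.4 in Total tumor 2.

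Of the 7 genes, 6 passed the filter for testing (2 or more libraries with an RPKM of 1 or above, which 13311 genes met). They passed in every group, since each had at least 1.53 RPKM in every library. Col11a1 did not pass. It was listed at 0.147 and 0.088 RPKM in Fibroblast, 0 and 0.194 in LLC, 0 and 0.093 in TAM, and 0.083 and 0.029 in Total tumor. These values correspond to an estimated 11.7 reads at most, so Col11a1 RNA was not measurable at this depth in any group.

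**Figure D1:**
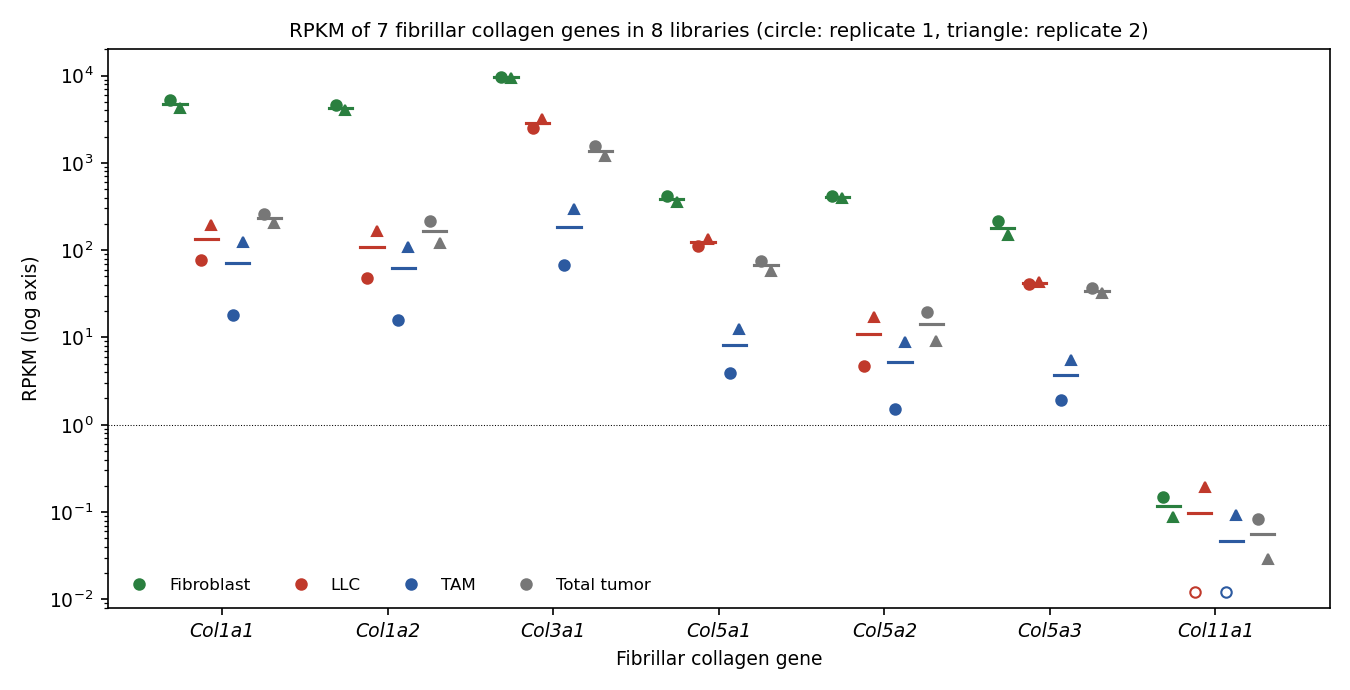
RPKM (log axis) of the 7 genes in the 8 libraries, with circles for replicate 1, triangles for replicate 2 and a bar at the mean of each group; open circles near the bottom mark a listed value of 0. Fibroblast libraries are highest for the 6 measurable genes, LLC comes closer to Fibroblast for Col3a1, Col5a1 and Col5a3 than for Col1a1, Col1a2 and Col5a2, and Col11a1 lies below 1 RPKM (dotted line) everywhere.

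Fibroblasts held by far the most fibrillar collagen RNA. The 7 chains summed to 20537.4 and 18524.6 RPKM in Fibroblast, which was 4.31 and 4.0% of all RPKM in those libraries. In LLC the sum was 2790 and 3696.3 RPKM (0.555 and 0.798%), in Total tumor 2171.3 and 1624.4 (0.47 and 0.245%), and in TAM 109.2 and 556.6 (0.0176 and 0.0984%). Markers of pericytes and smooth muscle were highest in the same libraries: the 7 listed, none of them at 0, summed to 203.6 and 123.8 RPKM in Fibroblast, 3.84 and 5.34 in LLC, 3.07 and 4.25 in TAM, and 21.3 and 18.3 in Total tumor. Rgs5, which marks pericytes, stood at 67.2 and 57.7 RPKM in Fibroblast. The part of such cells in the collagen values was not tested. In bulk samples such as Total tumor, fewer cells of a type and less RNA per cell cannot be told apart.

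The type I chains were higher in Fibroblast than in any other group. Col1a1 stood at 5314.5 and 4200.4 RPKM in the Fibroblast libraries, 76.2 and 191.6 in LLC, 18.0 and 122.9 in TAM, and 257 and 206.1 in Total tumor. The Fibroblast values lay far above all others, and the LLC and TAM ranges overlapped. The mean in Fibroblast was 4757.5 ± 787.8 RPKM (SD, n = 2) and that in LLC 133.9 ± 81.6 (SD, n = 2). The former was 35.5 times the latter, with a log2 difference of 5.28 (SE 0.83) and a limma adjusted p of 0.00258. Col1a2, the other chain of type I, stood at 4550.3 and 4002.8 RPKM in Fibroblast, 48.4 and 167.7 in LLC, 16.0 and 109.3 in TAM, and 213.6 and 120.4 in Total tumor. Its Fibroblast mean was 39.6 times that of LLC (log2 5.55, SE 0.89, adjusted p = 0.0029). These differences from LLC depended on its libraries, at 4.62 for Col1a1 and 4.66 for Col1a2 without LLC 1, and 5.94 and 6.43 without LLC 2. The order of both genes was Fibroblast, Total tumor, LLC, TAM, and only the first step passed the test (for Fibroblast against Total tumor log2 4.35 and 4.73, adjusted p = 0.00569 and 0.00557). LLC against Total tumor (adjusted p = 0.719 and 0.754) and TAM against LLC (adjusted p = 0.234 and 0.367) did not. Without TAM 1 the TAM minus LLC differences of Col1a1 and Col1a2 were 0.02 and 0.27 in place of -1.33 and -1.08, and without TAM 2 the Col1a1 difference was -2.68 and passed (adjusted p = 0.0203).

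Col5a2, a chain of type V, went with the type I chains. It stood at 421.7 and 399.7 RPKM in Fibroblast, 4.71 and 17.1 in LLC, 1.53 and 8.97 in TAM, and 19.7 and 9.09 in Total tumor. Fibroblast lay above every other library, and the LLC range overlapped both the TAM and the Total tumor range. The Fibroblast mean was 37.7 times the LLC mean (log2 5.34, SE 0.74, adjusted p = 0.00155, with 4.51 without LLC 1 and 6.17 without LLC 2). Neither TAM against LLC (log2 -1.02, adjusted p = 0.305) nor LLC against Total tumor (log2 -0.51, adjusted p = 0.809) passed. Without LLC 1 the latter difference was 0.32, and without Total tumor 1 it was 0.01.

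Col3a1, the only chain of type III collagen, was the most abundant fibrillar chain in every library. It stood at 9617.9 and 9421 RPKM in Fibroblast, 2507.4 and 3141.5 in LLC, 67.9 and 297.3 in TAM, and 1568.4 and 1198.5 in Total tumor, and no 2 groups overlapped. The Fibroblast mean was 3.37 times that of LLC, with a log2 difference of 1.76 (SE 0.75) that did not pass (limma adjusted p = 0.0991). It passed after upper-quartile rescaling (log2 2.27, adjusted p = 0.0456), after a correction for transcript length (log2 2.26, adjusted p = 0.0145) and in a fit of only these groups (adjusted p = 0.0392), and quantile normalization brought it to 0.24. LLC against TAM did pass: the LLC mean was 15.5 times the TAM mean, with a log2 difference of -4.29 (SE 0.75) for TAM minus LLC and an adjusted p of 0.0029. LLC against Total tumor did not (log2 1.03, adjusted p = 0.687).

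The same order held for Col5a1 and Col5a3, the other type V chains. Col5a1 stood at 419.5 and 351.6 RPKM in Fibroblast, 112.1 and 135.5 in LLC, 3.90 and 12.4 in TAM, and 75.9 and 58.4 in Total tumor. These groups did not overlap either, and the Fibroblast mean was 3.11 times the LLC mean (log2 1.63, SE 0.44, adjusted p = 0.0235). That call ended when any of these 4 libraries was left out (adjusted p = 0.123 without LLC 1, 0.0705 without LLC 2, 0.124 without Fibroblast 1 and 0.0912 without Fibroblast 2). Col5a3 stood at 213.3 and 149.1 RPKM in Fibroblast, 41.1 and 42.7 in LLC, 1.92 and 5.56 in TAM, and 36.6 and 31.9 in Total tumor. Fibroblast exceeded LLC 4.32 times (log2 2.06, SE 0.38, adjusted p = 0.00526, and 0.0505 without Fibroblast 1). LLC against TAM gave log2 differences, as TAM minus LLC, of -3.94 for Col5a1 and -3.29 for Col5a3 (adjusted p = 0.000401 and 0.000457). In Total tumor, both lay below LLC by less than the test could call (adjusted p = 0.586 and 0.794).

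As counts, all 6 tested genes were lower in TAM than in Fibroblast, where 17.3% of all genes tested were lower, with a median log2 difference of -6.21 against 0.13 for all genes tested. The size depended on the TAM library: the 6 differences ran from -5.37 to -4.77 without TAM 1 and from -7.98 to -5.94 without TAM 2. Between Fibroblast and LLC, 5 of 6 were higher in Fibroblast and 1 (Col3a1) did not pass, against a background of 13.0% higher (medians 3.67 and -0.46). Without Fibroblast 1 this count was 3, beside 776 of 12760 genes higher in place of 1726 of 13311. Between TAM and LLC, 3 of 6 were lower in TAM and 3 did not pass (background 27.5% lower, medians -2.31 and -0.38). The called differences of Col3a1, Col5a1 and Col5a3 were -3.23, -3.22 and -2.71 without TAM 1 and -5.35, -4.66 and -3.88 without TAM 2. All 6 were higher in Fibroblast than in Total tumor (background 12.1% higher, medians 3.57 and -0.51). The call of Col3a1 in that comparison (log2 2.79, adjusted p = 0.0205) ended without Fibroblast 1 or Fibroblast 2 (adjusted p = 0.0858 and 0.09), with no filter on low values (0.0675), with only these groups fitted (0.0902) and after quantile normalization (log2 1.79, 0.0914). Between TAM and Total tumor, Col3a1, Col5a1 and Col5a3 were lower in TAM (log2 -3.26, -3.06 and -3.01, adjusted p = 0.0132, 0.00253 and 0.00162), and the other 3 tested genes did not pass (background 23.9% lower, medians -2.63 and -0.36). Without TAM 1 the differences of Col5a1 and Col5a3 were -2.34 and -2.42, and without TAM 2 those of Col3a1, Col5a1 and Col5a3 were -4.32, -3.79 and -3.59. Without TAM 2, Col1a1 and Col1a2 passed as well (log2 -3.61 and -3.25), and without TAM 1 (log2 -2.20, adjusted p = 0.0963), with no filter (0.0509) or with only these groups fitted (0.0712) the Col3a1 call ended. LLC and Total tumor differed in 0 of the 6 by limma, and in 0 at an unadjusted p under 0.05 (background 2.35% in either direction). Fibroblast enters 3 of these comparisons, as do the other groups, so they are not independent of each other.

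The background depended on single libraries and on the scaling. For LLC against Total tumor the genes called numbered 313, but 2503 of 13171 without Total tumor 1, 68 without Total tumor 2, 0 without LLC 1, 92 without either Fibroblast library and 10 without either TAM library. Without Fibroblast 1 or Fibroblast 2, the genes lower in TAM than in Fibroblast went from 2300 to 1234 and 1243, those higher in Fibroblast than in LLC from 1726 to 776 and 741, and those higher than in Total tumor from 1613 to 684 and 635. The genes lower in TAM than in LLC went from 3659 to between 1959 and 2434 when 1 library of either group was left out, and those lower than in Total tumor from 3181 to 1599 without TAM 1 and 1744 without TAM 2. After upper-quartile rescaling the median of all genes for Fibroblast minus LLC went from -0.46 to -0.05, and the genes called went from 1726 higher and 3416 lower to 2219 and 1480 (2091 and 2313 after quantile normalization). For Fibroblast minus Total tumor the median went from -0.51 to -0.01, and the calls from 1613 higher and 3988 lower to 2243 and 1760 (2234 and 2428). For TAM minus Total tumor they went from 1509 and 3181 to 1928 and 2252 (median -0.36 to -0.12, and 2091 and 2055 by quantile). Quantile normalization moved TAM minus LLC from 2048 and 3659 to 2379 and 2757 (median -0.38 to -0.15). After the length correction the calls were 2707 and 1835 for Fibroblast minus LLC, 3010 and 2672 for TAM minus LLC, 2619 and 2002 for Fibroblast minus Total tumor, and 2680 and 2279 for TAM minus Total tumor. None of the called differences of the 6 genes changed direction under any alternative tried.

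Relative to Fibroblast, the chains in LLC stood at 2 separate levels. In LLC 1 and LLC 2, Col3a1 stood at 26.3 and 33.0% of the mean Fibroblast level, Col5a1 at 29.1 and 35.2%, and Col5a3 at 22.7 and 23.6%. Col1a1 stood at 1.6 and 4.03%, Col1a2 at 1.13 and 3.92%, and Col5a2 at 1.15 and 4.16%. All 6 were higher in LLC 2 than in LLC 1, and by more for the latter 3. Fibroblast markers were spread over 0.897 to 67.6% in LLC 1 and 1.83 to 65.8% in LLC 2. Lum, a small proteoglycan of collagen fibrils, stood at 67.6 and 65.8% of Fibroblast, Dpt at 27.3 and 47.1%, the receptor Pdgfra at 32.2 and 41.2% and Dcn at 19.4 and 30.9%. Clec3b stood at 0.897 and 1.83%, Pi16 at 1.02 and 2.18%, and the surface protein Thy1 at 1.26 and 3.52%. The remaining markers lay between, with Pdgfrb at 11.6 and 10.8%, Fbln1 at 6.58 and 6.8% and Fap at 3.41 and 5.55%. The sum of the 10 fibroblast markers was 1427.1 and 2039.9 RPKM in LLC and 8573.8 and 8640.1 in Fibroblast, and none was listed at 0 in LLC. The part of other cells in the LLC values was not tested.

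In TAM the 6 chains lay close together relative to Fibroblast. In TAM 1 they ran from 0.372% (Col5a2) to 1.06% (Col5a3), and in TAM 2 from 2.18% (Col5a2) to 3.21% (Col5a1). The 10 fibroblast markers ran from 0.149 to 1.32% in TAM 1 and from 1.42 to 3.46% in TAM 2. Both sets were higher in TAM 2 than in TAM 1, gene by gene. The fibroblast markers summed to 51.3 and 223.1 RPKM in TAM, with none of the 10 listed at 0, and their part in the collagen values of TAM was not tested.

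**Figure D2:**
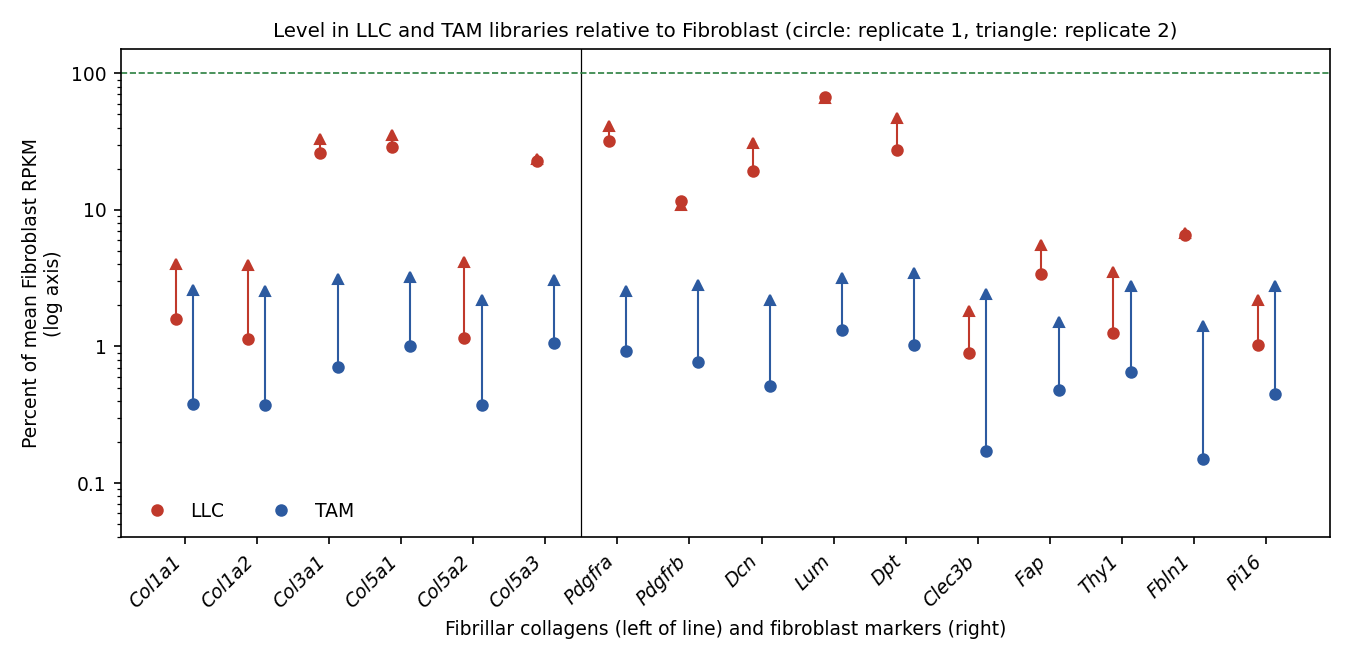
RPKM in each LLC and TAM library as a percent of the mean Fibroblast RPKM (log axis), for the 6 measurable fibrillar collagens and 10 fibroblast markers; circles are replicate 1, triangles replicate 2, and the dashed line is the Fibroblast mean. In LLC, Col3a1, Col5a1 and Col5a3 lie between 22.7 and 35.2% and Col1a1, Col1a2 and Col5a2 between 1.13 and 4.16%, while in TAM the 6 collagens lie between 0.372 and 3.21%.

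Subunit ratios within a library do not depend on its scale, and 6 were tested with an exact permutation test of the F statistic over the 4 groups (2520 assignments, Benjamini-Hochberg adjusted over the 6). The smallest p this design can give is 0.00952. The type I ratio, Col1a1 over Col1a2, was near parity throughout: 1.17 and 1.05 in Fibroblast, 1.57 and 1.14 in LLC, 1.13 and 1.12 in TAM, and 1.2 and 1.71 in Total tumor. Groups were not shown to differ (exact permutation p = 0.229, adjusted 0.229). The ratio Col5a3 over Col5a1 ranged from 0.315 to 0.546, lowest in the LLC libraries at 0.367 and 0.315, and did not pass either (exact permutation p = 0.0952, adjusted 0.114).

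Ratios across the chain sets did differ between groups. Those with Col1a1 follow in part from the sort, since its reporter set the Fibroblast gate and was excluded from TAM. Col3a1 over Col1a1 was 1.81 and 2.24 in Fibroblast, 3.77 and 2.42 in TAM, 6.1 and 5.82 in Total tumor, and 32.9 and 16.4 in LLC. No groups overlapped, and the exact permutation p was 0.00952 (adjusted 0.0143). The type V ratio, Col5a1 over Col5a2, was 0.995 and 0.88 in Fibroblast, 2.55 and 1.38 in TAM, 3.85 and 6.43 in Total tumor, and 23.8 and 7.93 in LLC, with the same p. These chains were thus about equal in Fibroblast, and Col5a1 was the higher of them in LLC. Col5a1 over Col1a1 was 0.0789 and 0.0837 in Fibroblast, 0.217 and 0.101 in TAM, 0.295 and 0.284 in Total tumor, and 1.47 and 0.707 in LLC (exact permutation p = 0.00952, adjusted 0.0143). On the log2 scale, the mean of Col3a1 over Col1a1 was 4.54 in LLC and 1.01 in Fibroblast, that of Col5a1 over Col5a2 3.76 and -0.10, with pooled standard deviations of 0.43 and 0.68 within groups. LLC 1 and LLC 2 differed in all 3 ratios, with the larger value in LLC 1. Leaving out either Total tumor library or either Fibroblast library ended all 3 calls (adjusted p = 0.0571 and 0.0857, respectively), and that of Col5a1 over Col5a2 also ended without LLC 1 (0.0714) or TAM 2 (0.0571). The ratio Col11a1 over Col5a1 gave the same adjusted p of 0.0143, but 0.229 with a pseudocount of 0.01 in place of 0.1, so with Col11a1 at 0 to 0.194 RPKM it depended on the pseudocount.

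**Figure D3:**
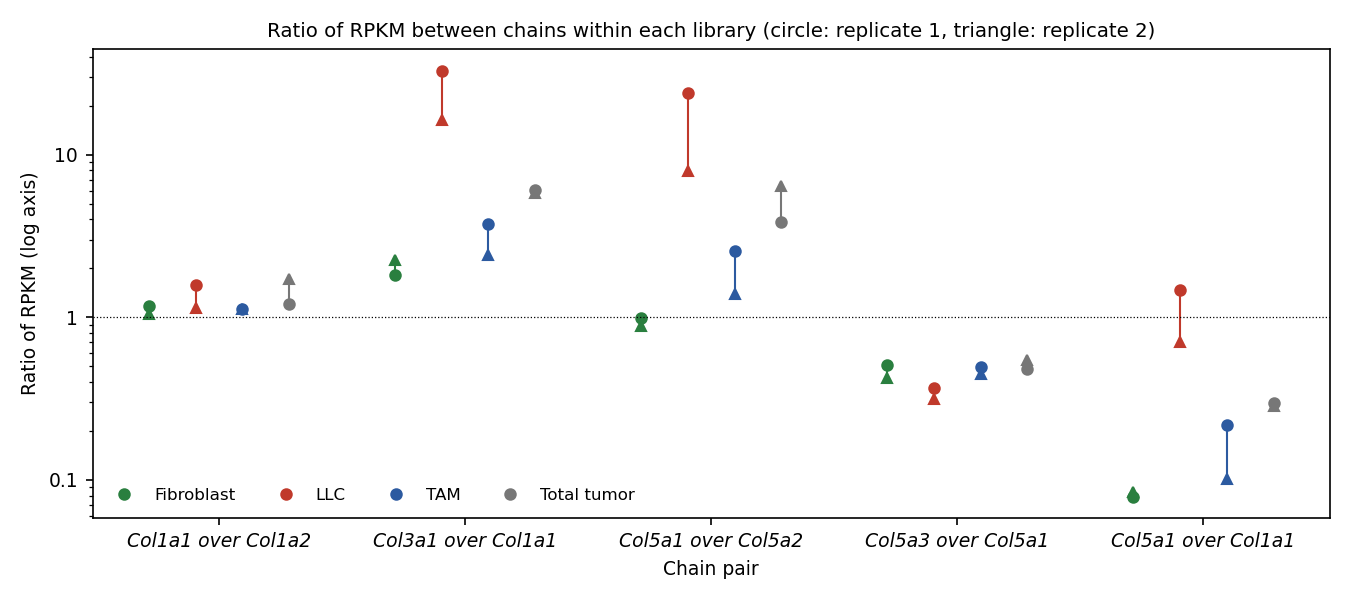
Ratio of RPKM between chains within each library (log axis), by group, with circles for replicate 1, triangles for replicate 2 and a dotted line at equal levels. Col1a1 over Col1a2 and Col5a3 over Col5a1 lie in narrow bands, while Col3a1 over Col1a1, Col5a1 over Col5a2 and Col5a1 over Col1a1 are highest in LLC, lowest in Fibroblast, and in between in TAM and Total tumor. Ratios with Col1a1 follow in part from the sort on its reporter.

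The make-up of the fibrillar collagen RNA followed from these ratios, and so in part from the sort on the Col1a1 reporter. Col3a1 made up 46.8 and 50.9% of the summed RPKM of the 7 chains in Fibroblast, 89.9 and 85.0% in LLC, 62.2 and 53.4% in TAM, and 72.2 and 73.8% in Total tumor. Col1a1 made up 25.9 and 22.7% in Fibroblast, 2.73 and 5.18% in LLC, 16.5 and 22.1% in TAM, and 11.8 and 12.7% in Total tumor. Unsorted tumor lay between LLC and Fibroblast in both shares. TAM 2 lay closer to Fibroblast than TAM 1 did.

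**Figure D4:**
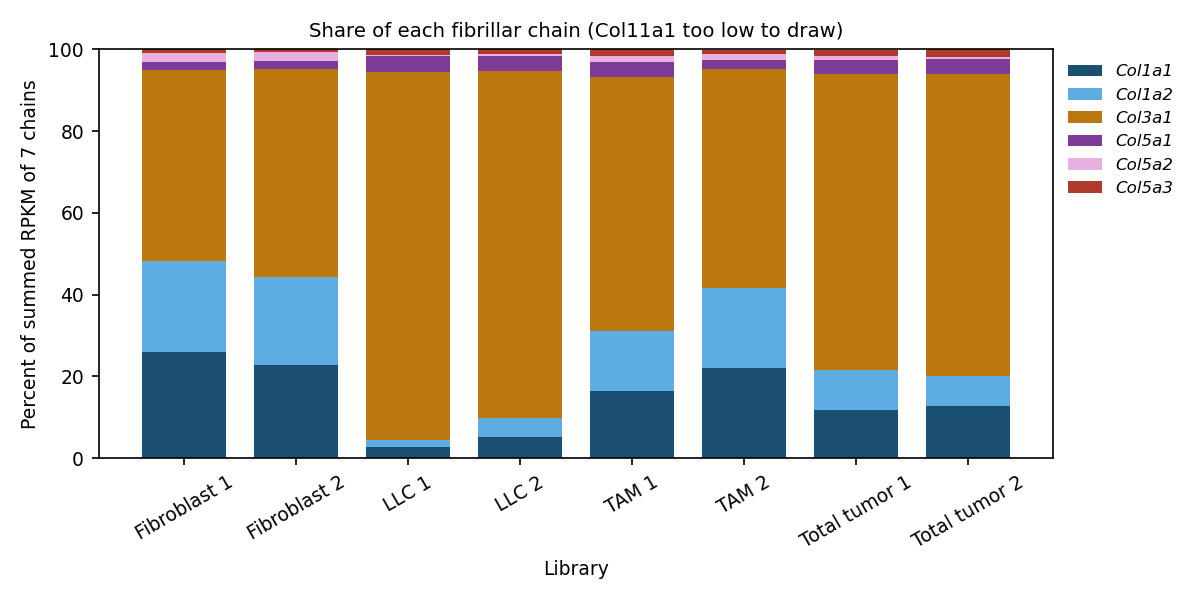
Stacked bars of the share of each chain in the summed RPKM of the 7 fibrillar collagens, 1 bar per library (axis in percent, from 0 to 100). Col3a1 fills 85.0 to 89.9% of the LLC bars and 46.8 to 50.9% of the Fibroblast bars, and the type I chains fill most of the rest in Fibroblast.

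Over the 8 libraries, the chains fell into the same sets, which were named after these values were seen. The root mean square distance between their centred log2(RPKM + 1) profiles was 0.24 to 0.38 among Col1a1, Col1a2 and Col5a2, 0.25 to 0.48 among Col3a1, Col5a1 and Col5a3, and 1.27 to 1.54 between the sets. By the same measure, the genes nearest to Col1a1 were Bgn, Mmp2 and Rarres2 (0.29, 0.31 and 0.35). Nearest to Col1a2 were Serping1, Postn and Cpxm1 (0.21, 0.23 and 0.23), and nearest to Col5a2 were Cpxm1, Gpr133 and Mfap5 (0.18, 0.18 and 0.22). Col3a1 was nearest to Dcn, Dpt and Scara3 (0.20, 0.32 and 0.36), Col5a1 to Col6a2, Il33 and Medag (0.21, 0.23 and 0.25), and Col5a3 to Plat, Figf and Thbs3 (0.26, 0.27 and 0.27). Dcn, a proteoglycan that binds collagen fibrils, averaged 3112.7 RPKM in Fibroblast, 783.1 in LLC, 42.1 in TAM and 390.5 in Total tumor. Postn, a matrix protein of fibroblasts, averaged 666.7 RPKM in Fibroblast and 14.6 in LLC. These are descriptions over 8 libraries that share their groups.

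Other fibrillar chains were scarce. Of 4 listed, Col2a1 and Col11a2 were too low to test. Col24a1 stood at 4.25 and 3.54 RPKM in Fibroblast and at no more than 0.423 in any other library, and Col27a1 at 9.55 and 8.87 in Fibroblast and at no more than 0.81 elsewhere. Both passed the filter on low values through the Fibroblast libraries alone, which fixed the direction any call could take, so their levels are a description with no test.

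Of 19 genes that hydroxylate, fold and secrete procollagen, 17 were tested. Among all genes tested, 13.0% were higher in Fibroblast than in LLC and 25.7% were lower. Of the 17, 6 were higher, 2 were lower and 9 did not pass (median log2 0.28, with -0.46 over all genes tested). The higher ones numbered 9 after upper-quartile rescaling, 8 after quantile normalization and 9 after the length correction. In each of these settings the lower ones numbered 1. Fewer were higher when either LLC or either Fibroblast library was left out, and fewer were lower without LLC 2, Fibroblast 1 or Fibroblast 2. Fkbp14, a prolyl isomerase, and Creb3l1, a transcription factor of collagen-secreting cells, had the largest differences (log2 3.59 and 3.45, adjusted p = 0.000646 and 0.00037). Plod2, a lysyl hydroxylase, stood at 137.9 and 191.6 RPKM in LLC and 69.0 and 68.7 in Fibroblast (log2 -1.23, adjusted p = 0.0164), and Leprel1, a prolyl 3-hydroxylase, was lower in Fibroblast too (log2 -2.33, adjusted p = 0.00348). In TAM 10 of the 17 were lower than in Fibroblast, 0 higher and 7 did not pass (background 17.3% lower, median -2.84). Serpinh1, the collagen chaperone HSP47, stood at 1203.2 and 1081.6 RPKM in Fibroblast, 384 and 364.2 in LLC, and 18.0 and 35.6 in TAM (TAM minus Fibroblast log2 -5.44, SE 0.37, adjusted p = 0.000106), and Fkbp14 was lower as well (log2 -4.50).

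Procollagen propeptide cleavage genes were tested in 6 of 10 cases. One of these, Tll1, a protease of the same family as Bmp1, passed the filter only through Fibroblast (3.05 and 4.03 RPKM, and no more than 0.264 elsewhere) and is left out of the counts. The other 5 were lower in TAM than in Fibroblast (background 17.3% lower, median log2 -5.44). They were led by Adamts2, which removes the amino-terminal propeptide (log2 -5.89, adjusted p = 0.00023), and Pcolce2, an enhancer of carboxyl-terminal cleavage (log2 -5.51). Between Fibroblast and LLC, 3 were higher in Fibroblast and 2 did not pass (background 13.0% higher, median 1.38). The counts after rescaling included Tll1, whose direction the filter fixed, so they do not show how stable the count among the other 5 is. With Tll1 the higher ones numbered 4, with 5 after upper-quartile rescaling or the length correction and 3 after quantile normalization. Counted with Tll1, fewer passed when either LLC library was left out. Without Fibroblast 1 or Fibroblast 2, fewer of the other 5 passed, and Tll1 no longer reached the filter. Adamts2 stood at 152.4 and 154.2 RPKM in Fibroblast and 1.70 and 5.04 in LLC (log2 5.26, adjusted p = 0.000745), and Pcolce2 differed by a log2 of 3.27 (adjusted p = 0.00037).

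The lysyl oxidases, which crosslink collagen, number 5 in the list. All 5 were lower in TAM than in Fibroblast (background 17.3% lower, median log2 -5.62 against 0.13 over all genes tested). Between Fibroblast and LLC, 4 of 5 were higher in Fibroblast (background 13.0% higher, median 4.90 against -0.46). All 5 were higher after upper-quartile rescaling, quantile normalization or the length correction, and fewer passed without LLC 1 or Fibroblast 2. Lox stood at 150.5 and 175.3 RPKM in Fibroblast and 1.66 and 7.50 in LLC (log2 5.11, adjusted p = 0.00216). Loxl1 and Loxl2 differed by log2 5.65 and 4.90 (adjusted p = 0.000825 and 0.00223), and Loxl4 by 1.69 (adjusted p = 0.00785). Loxl3 did not pass, at 64.3 and 57.4 RPKM in Fibroblast and 50.8 and 41.0 in LLC (log2 0.41, adjusted p = 0.255).

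Of 14 genes that organise fibrils or bind to them, Fmod passed the filter only through Fibroblast (2.66 and 3.98 RPKM, and no more than 0.101 elsewhere) and is left out of the counts. Of the other 13, 12 were lower in TAM than in Fibroblast (background 17.3% lower, median log2 -5.98), led by Dcn and Fbln1 (log2 -6.50 and -6.44, adjusted p = 0.000194 and 0.000106). The remaining gene, Fn1, which encodes fibronectin and is named here after its value was seen, stood at 118.1 and 602.2 RPKM in TAM (log2 -2.07, adjusted p = 0.0722). Fn1 was called lower after upper-quartile rescaling, after quantile normalization and with a replicate block that crossed the Total tumor numbers. Its call also depended on which TAM library was kept. Between Fibroblast and LLC, 8 were higher in Fibroblast, 0 lower and 5 did not pass (background 13.0% higher, median 3.79). The counts after rescaling included Fmod, whose direction the filter fixed, so they do not show how stable the count among the 13 is. With Fmod the higher ones numbered 9, with 10 after upper-quartile rescaling and 8 after quantile normalization. Fewer passed when either LLC or either Fibroblast library was left out. Postn and Col14a1, a collagen that attaches to fibrils, had the largest differences (log2 5.80 and 5.36, adjusted p = 0.0033 and 0.00186).

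**Figure D5:**
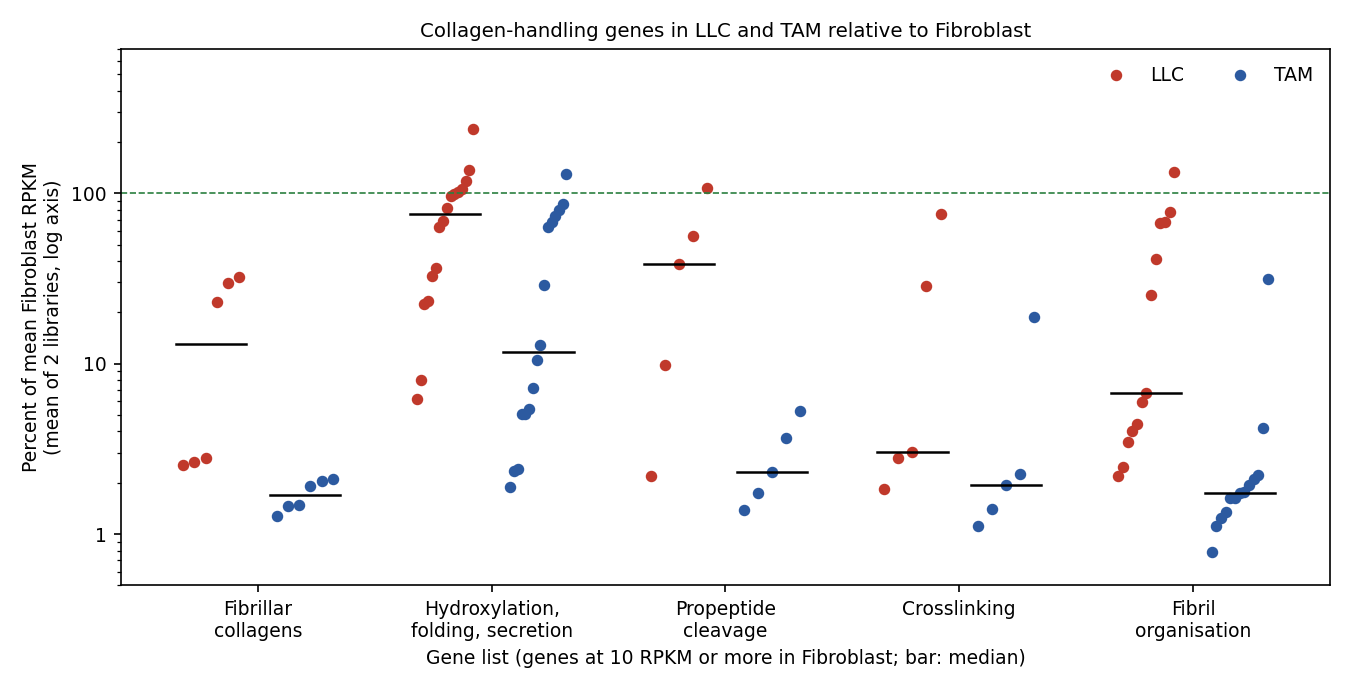
Each dot is a gene, placed at its mean RPKM over the 2 LLC or the 2 TAM libraries as a percent of the mean Fibroblast RPKM (log axis), by gene list, for genes with at least 10 RPKM in Fibroblast; bars are medians and the dashed line is the Fibroblast mean. Among the genes shown, those of hydroxylation, folding and secretion run in LLC from 6.2% (Fkbp14) to 239.1% (Plod2). The fibrillar collagens run from 2.53 to 2.81% and from 23.1 to 32.1%. The cut is on the level that the percent is taken of, so it can favour low percents, and ranges and medians hold only for the genes kept. It left out Leprel1, at 10.6 and 9.9 RPKM in LLC and 1.46 and 1.04 in Fibroblast. It also left out genes higher in Fibroblast, such as Tll1 and Fmod.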

How the data were processed

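RNA was sequenced from 8 libraries in 4 groups, with oligo-dT priming, per the labels' protocols. The deposited table holds RPKM values that the authors computed per RefSeq transcript, 1 column per library and not pooled. STAR, HOMER and mouse build mm9 are named in the submitters' processing notes with no version. The sources used here do not state strand, filters, or the read total behind the RPKM. Promoter sequences come from RefSeq on a later build and were matched by symbol.

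Of 31645 transcripts, 3 had no gene name and were dropped, and the transcript with the highest mean RPKM was kept per symbol (23952 symbols). Depth was estimated as a number of reads that brings most low RPKM values within 0.05 of whole reads (59.2 to 62.2% of them). A multiple of the depth fits nearly as well, so the best value near the lowest depth that fitted well was taken. RPKM is not a count, so log2(RPKM + 1) of the 13311 genes reaching an RPKM of 1 in 2 or more libraries was tested with limma 3.58.1 (R 4.3.3) in 1 fit over all groups with a mean-variance trend (residual degrees of freedom 4, prior 3.62). Calls are Benjamini-Hochberg adjusted p-values under 0.05 over all genes tested, and differences are on the log2(RPKM + 1) scale, which understates changes of low genes. Ratios were tested on log2 values with a pseudocount of 0.1. The limma fit and the permutation test were tested on simulated data.

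The members, gene lists, markers and ratios were chosen with earlier results of these data known. Named genes are the 7 members, the 3 nearest profiles of each tested member, and for each list the 2 largest called changes in each direction in TAM against Fibroblast and Fibroblast against LLC, or all members of lists of 5 or fewer. Alternatives were pseudocounts, filters, upper-quartile and quantile scaling, no variance trend, only the groups compared, a replicate block, the mean over transcripts, a correction for transcript length (matched for 97.4% of transcripts) and leaving out each library. A block with crossed Total tumor numbers was added after seeing the data.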

Additional observations from a re-analysis of the deposited data

How the results depend on the processing

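Over the alternatives for the 36 differences of single genes, 693 values kept direction and side of the threshold, 13 lost their call, 9 gained one and 5 changed direction, none of them called. The 5 were TAM minus LLC for Col1a1 and Col1a2 without TAM 1 (0.02 and 0.27, with ranges of -2.68 to 0.02 and -2.43 to 0.27 over the libraries left out), and LLC minus Total tumor for Col1a2 without LLC 1 (0.06, range -1.71 to 0.06) and for Col5a2 without LLC 1 or Total tumor 1 (0.32 and 0.01, range -1.34 to 0.32).

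With 1 library left out at a time, the genes called numbered 3 to 5 for Fibroblast minus LLC and 2 to 5 for TAM minus Total tumor, and the adjusted p of the ratios Col3a1 over Col1a1, Col5a1 over Col5a2, Col5a1 over Col1a1 and Col11a1 over Col5a1 ran from 0.0143 to 0.0857 (exact permutation test). A group left with 1 library is assumed in the limma fit to vary like the others. The Col11a1 ratio had an adjusted p of 0.229 with a pseudocount of 0.01.

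Same-numbered libraries deviated together weakly among the sorted groups (correlations of 0.162 to 0.274) and the opposite way between these and Total tumor (-0.361 to -0.179), so the numbers were not taken as pairs. With the replicate block, the counts of genes called stayed at 6, 5, 3, 6, 0 and 3 (TAM minus Fibroblast, Fibroblast minus LLC, TAM minus LLC, then Fibroblast, LLC and TAM minus Total tumor), and no single call changed. With the Total tumor numbers crossed, the count for TAM minus Total tumor was 6. With 2 libraries a group, precision rests on few values, and levels of Col11a1 are limited by depth.

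Over all genes, the 313 calls for LLC minus Total tumor became 180 with a pseudocount of 5, 12 with no filter, 202 after upper-quartile rescaling and 0 with only these groups fitted. With only the groups compared, the genes lower in Fibroblast than in LLC went from 3416 to 5230 and those lower in TAM than in Total tumor from 3181 to 1276.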
